A study of Mus musculus with 24 samples.

Results

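The genes described here encode interleukins and their receptors in mouse mammary tumours treated with entinostat and checkpoint antibodies. They are the 50 endogenous genes of the panel whose symbol begins with Il and a digit, after 9 genes were set aside: Il1a, Il1b, Il1r1, Il1r2, Il1rap, Il1rn, Il2ra, Il2rb and Il34. The panel held 750 endogenous genes in all. Of the 50 genes, 25 encode ligands or ligand subunits and 25 encode receptor chains or soluble receptors. The choice was by symbol, and a few of the genes kept belong to the wider IL-1 superfamily: Il18 with its receptor chains Il18r1 and Il18rap, the IL-33 receptor Il1rl1 (ST2), the IL-36 receptor Il1rl2, and Il1rapl2.

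Interleukins are secreted proteins through which leukocytes, stroma and epithelium signal to each other. Most bind receptors built from a chain private to the cytokine and a chain shared within a family, such as the common gamma chain Il2rg, the signal transducer gp130 (Il6st) or the shared IL-17 receptor Il17ra, and many of these pass the signal through Janus kinases and STAT factors. In tumours, IL-6 and IL-10 are studied as cytokines of stromal and myeloid cells, the IL-12 family as inducers of T helper programs, and the receptors for IL-7 and IL-21 as genes of lymphocytes.

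All mice were female neu-N mice of the FVB strain, which carry the neu antigen as a self antigen, aged 7 to 8 weeks when NT2.5 mammary tumour cells were placed in the mammary fat pad. NT2.5 is a single transplanted line that came from a spontaneous mammary tumour. Treatment began on day 3 and lasted 3 weeks. The class I histone deacetylase inhibitor entinostat (ENT) was given by mouth each day at 5 mg/kg, and antibodies to PD-1, CTLA-4 or HER2 were given at 100 µg per mouse into the peritoneum. Vehicle mice received isotype antibodies and methylcellulose. There were 4 samples each of vehicle, of ENT alone, of ENT+PD1, of ENT+CTLA4 and of the triple arm ENT+PD1+CTLA4, and 2 of ENT+CTLA4+HER2. A further 2 samples carry titles that repeat those of ENT+PD1 replicates 1 and 2 and are called the repeat-titled pair. No arm received an antibody without ENT, so every antibody effect was measured on top of ENT. The labels give whole tumours as the source, but the extraction protocol ends with a cell suspension for isolating immune cells, and it states that studies in these mice were run both with and without anti-HER2. They do not state that the samples of an arm came from separate animals, so the p-values measure sample-to-sample spread that may be technical.

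RNA molecules were counted on an nCounter instrument with a capture and a reporter probe per gene, and the values are normalized counts, scaled by the authors so that the 20 housekeeping genes have the same geometric mean in every sample. Total counts ran from 226863 to 483412 per sample, with a median of 366852. According to the file headers there were 2 cartridges with 12 samples each. Vehicle, ENT alone and ENT+PD1 were on the first, and every arm with anti-CTLA-4 was on the second, together with the repeat-titled pair. The scaled mean of the 8 negative control probes was 9.02 ± 1.99 (SD, n = 12) on the first cartridge and 5.32 ± 1.11 (n = 12) on the second. Epithelial and endothelial or stromal markers were high in every sample, with 5 or 6 of 6 measured epithelial markers and 7 or 8 of 8 stromal ones above the negative controls. In bulk tissue, fewer cells of a type and less RNA per cell cannot be told apart.

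Promoter windows are shown for the ligand with the widest spread between samples of an arm (Il6) and for a group of receptor chains that were highest in the same samples (Il2rg, Il7r and Il21r, described below). The windows run from 250 bases before to 50 bases after the RefSeq transcription start on build GRCm38.p6, 5′ to 3′ on the gene's strand. Il6 lies at chr5:30012864-30013163 on the plus strand, Il2rg at chrX:101268206-101268505 on the minus strand, Il7r at chr15:9529827-9530126 on the minus strand and Il21r at chr7:125603179-125603478 on the plus strand. Capitals mark matches on either strand to 4 motifs: the STAT site GAS (TTCNNNGAA), the AP-1 site (TGANTCA), the RUNX site (TGTGGT) and the NF-kB consensus.
Il6: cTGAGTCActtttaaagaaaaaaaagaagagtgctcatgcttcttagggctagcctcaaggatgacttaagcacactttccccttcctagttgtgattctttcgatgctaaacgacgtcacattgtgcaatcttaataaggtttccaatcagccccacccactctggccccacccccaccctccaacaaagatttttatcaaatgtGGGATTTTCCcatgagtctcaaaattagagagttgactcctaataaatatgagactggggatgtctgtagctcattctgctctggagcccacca
Il2rg: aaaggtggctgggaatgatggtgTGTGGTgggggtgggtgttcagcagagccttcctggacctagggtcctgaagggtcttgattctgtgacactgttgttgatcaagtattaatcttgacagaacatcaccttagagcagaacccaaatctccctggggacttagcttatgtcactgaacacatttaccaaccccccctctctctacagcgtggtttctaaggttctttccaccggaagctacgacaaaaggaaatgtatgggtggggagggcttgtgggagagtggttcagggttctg
Il7r: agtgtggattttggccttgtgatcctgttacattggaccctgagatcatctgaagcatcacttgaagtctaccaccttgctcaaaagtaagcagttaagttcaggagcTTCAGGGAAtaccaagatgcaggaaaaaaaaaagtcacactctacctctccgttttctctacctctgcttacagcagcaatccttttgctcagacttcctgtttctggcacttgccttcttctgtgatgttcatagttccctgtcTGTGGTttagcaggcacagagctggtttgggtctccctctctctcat
Il21r: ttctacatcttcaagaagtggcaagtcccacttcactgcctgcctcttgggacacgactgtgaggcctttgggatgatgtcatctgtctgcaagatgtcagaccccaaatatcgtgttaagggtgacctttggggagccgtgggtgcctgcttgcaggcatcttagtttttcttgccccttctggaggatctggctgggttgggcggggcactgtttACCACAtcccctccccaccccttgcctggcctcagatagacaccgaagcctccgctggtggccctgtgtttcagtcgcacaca
The Il6 window held an AP-1 match at bases 2 to 8 and an NF-kB match at bases 207 to 216, counted from the 5′ end of the window. Il2rg and Il21r each held a single RUNX match. Il7r held a GAS match at bases 109 to 117 and a RUNX match at bases 254 to 259. Over all 32851 RefSeq windows of the same length, 7.81% held the AP-1 motif, 4.51% the NF-kB consensus, 16.8% the RUNX motif and 8.3% the GAS motif. A match describes the letters of the window and no binding was measured. RefSeq windows were matched by symbol for 38 of the 50 genes.

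Few of the interleukins and most of their receptors were measured above background in these tumours. A gene was counted as detected in a sample where its value exceeded the mean of the 8 negative control probes of that sample by 2 SD, a threshold that lay between 8.54 and 25.3 normalized counts. In at least 18 of the 24 samples, 21 of the 50 genes were detected, against 546 of all 770 endogenous and housekeeping genes (70.9%). The 21 comprised 17 of 25 receptors and 4 of 25 ligands. At the other end, 20 of the 50 genes were detected in 3 samples or fewer, 14 of them ligands and 6 receptors, against 108 of 770 genes (14.0%). With a threshold of 3 SD the number detected in at least 18 samples was 17, and with the highest negative control probe as the threshold it was 23. Probes differ in efficiency, so values are compared between samples for a gene and not between genes.

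**Figure D1:**
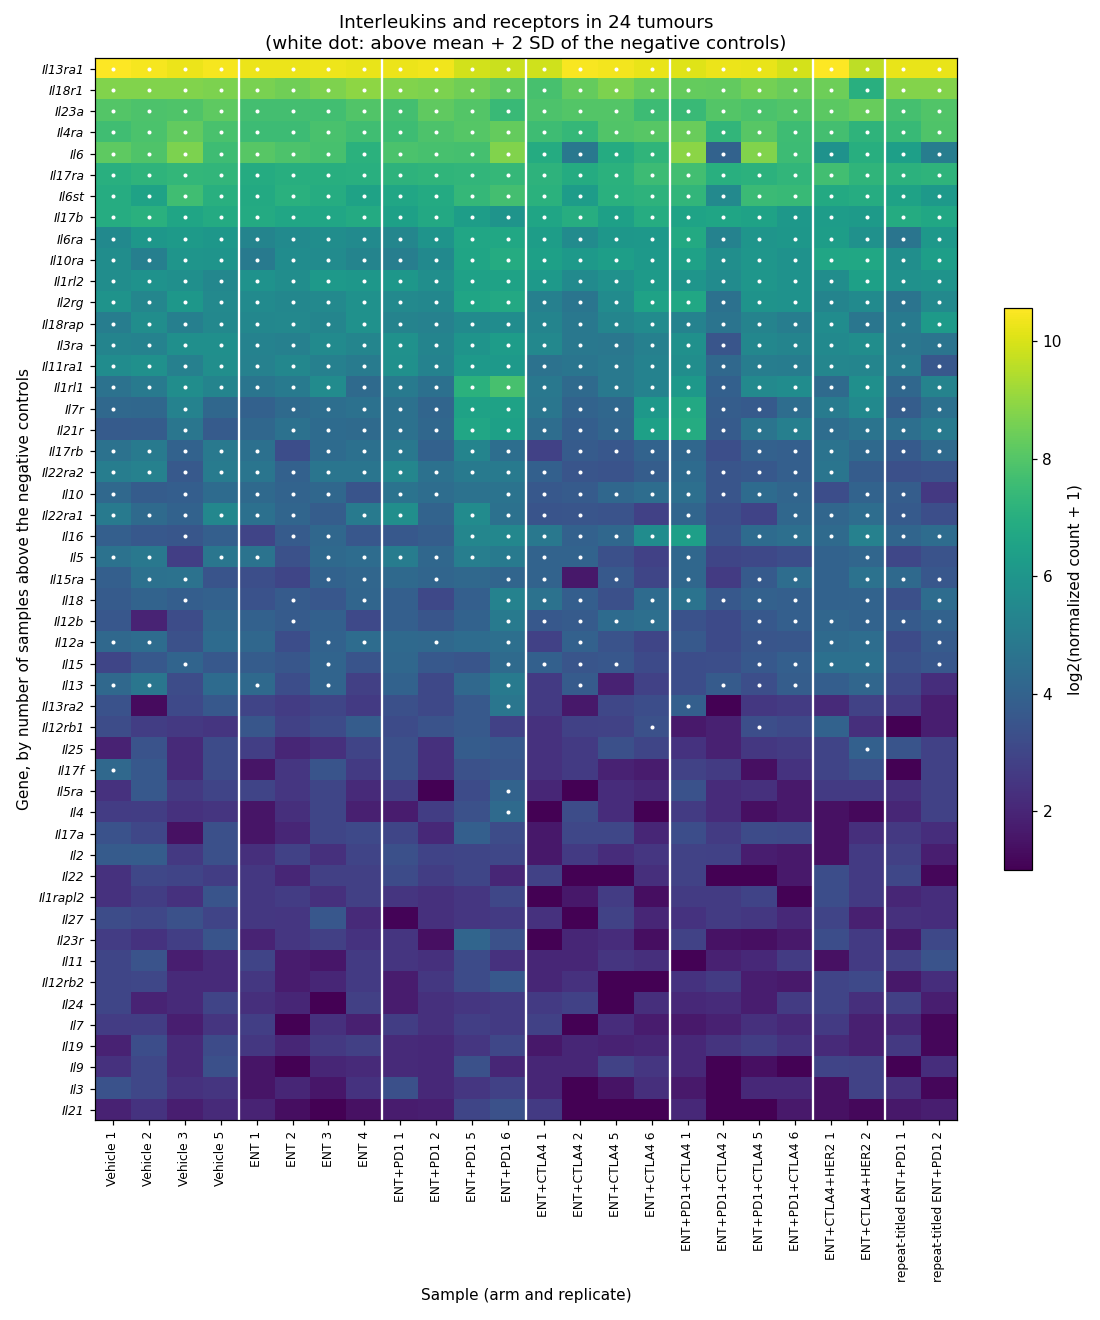
Heat map of the 50 interleukin and receptor genes (rows, by number of samples in which they were detected) in 24 samples (columns, by arm), coloured by log2(normalized count + 1). A white dot marks a value above the mean of the sample's negative controls by 2 SD. Dots fill the upper 16 rows in all 24 samples and are absent from the lowest 14 rows.

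The ligands detected in all 24 samples were Il23a, Il6 and Il17b. Il23a, the p19 subunit of IL-23, ran from 176 to 323 with a median of 245, and Il17b, a relative of IL-17 described in epithelial tissues, from 61.2 to 133 with a median of 99.3. Il6, a cytokine of inflamed stroma and myeloid cells, spanned 15.0 to 481 with a median of 202. Il10, a suppressive cytokine of myeloid and regulatory T cells, was detected in 18 samples at 4.98 to 24.1. These ligands therefore split into a pair with a narrow range, one with a very wide range, and one close to the background.

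Other ligands were detected in part of the samples. Il16, a chemoattractant of CD4 T cells, was detected in 16 samples (6.80 to 83.3) and the eosinophil cytokine Il5 in 14 (5.88 to 32.8). Il18 was detected in 13 samples (7.35 to 36.3), and the T cell and NK cell growth factor Il15 in 11 (6.92 to 22.1). The IL-12 subunits Il12b (2.85 to 30.1) and Il12a (6.16 to 21.8) were detected in 12 and 11 samples, and the type 2 cytokine Il13 in 10 (2.74 to 30.1). Il23a was thus detected everywhere, while its partner subunit in IL-23, Il12b, was above the negative controls in 12 of 24 samples. Of these, 2 were among the 12 samples of the first cartridge and 10 among the 12 of the second, where the negative controls were lower, at nearly the same median of 13.1 and 13.3.

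The remaining ligands were detected in 1 sample at most. Il25, Il17f and Il4 were each detected in 1 sample, with highest values of 14.2, 18.0 and 18.7. Il17a, Il2, Il22, Il27, Il11, Il24, Il7, Il19, Il9, Il3 and Il21 were detected in none, with highest values between 6.16 (Il7) and 14.0 (Il17a). Differences between arms were not tested for these genes.

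Among the receptors, chains of the IL-4, IL-13, IL-6, IL-17, IL-10 and IL-18 receptors were detected in all 24 samples. Il13ra1, a chain of the type II IL-4 receptor, ran from 781 to 1513, and its partner Il4ra, the IL-4 receptor alpha chain, from 150 to 334. The gp130 family gave 44.1 to 208 for the signal transducer Il6st, 25.4 to 112 for the IL-6 receptor Il6ra and 11.2 to 71.6 for the IL-11 receptor Il11ra1. Il17ra ran from 117 to 203, Il10ra, the ligand-binding chain for IL-10, from 29.1 to 116, and the common gamma chain Il2rg from 22.9 to 109.

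The IL-1 superfamily receptors, except Il1rapl2, were detected throughout as well. Il18r1, the IL-18 binding chain, ran from 129 to 492, its accessory chain Il18rap from 24.7 to 72.2, and the IL-36 receptor Il1rl2 from 42.2 to 90.3. Il1rl1, the IL-33 receptor carried by mast cells, regulatory T cells and type 2 lymphoid cells, spanned 14.1 to 219. Il3ra, the IL-3 receptor alpha chain, ran from 10.6 to 76.8.

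A few receptor genes were near the threshold, and several were not seen. Il7r was detected in 21 samples (12.2 to 109), Il21r in 20 (12.3 to 118), the IL-25 receptor Il17rb in 20 (6.16 to 38.6) and Il22ra2, a soluble IL-22 binding protein, in 20 (9.14 to 41.4). Il22ra1, the IL-22 receptor of epithelium, was detected in 17 samples (6.21 to 51.7) and Il15ra in 14 (2.08 to 23.5). The decoy receptor Il13ra2 (1.00 to 25.9) and the IL-12 receptor chain Il12rb1 (1.02 to 15.3) were detected in 2 samples each and the eosinophil receptor Il5ra (1.00 to 15.6) in 1. Il12rb2, Il23r and Il1rapl2 were detected in none, with highest values of 11.4, 16.4 and 10.3. The receptor chains specific to IL-12 and IL-23 were thus at background in nearly all tumours, including those where Il23a was measured.

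Several of these genes varied widely between samples of a single arm. Samples are called tumours here, though the labels do not state that those of an arm came from separate animals. The spread may thus be technical in part. The SD within arms on the log2 scale was 1.17 for Il6, 0.97 for Il21r, 0.96 for Il7r, 0.91 for Il1rl1 and 0.81 for Il16. It was lowest for Il17ra (0.20), Il23a (0.22), Il17b (0.23) and Il13ra1 (0.25). The median over the 25 tested genes was 0.46, and over all 621 genes tested it was 0.40.

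Il6 was the widest. It measured 191, 244, 292 and 411 in vehicle, 136, 218, 236 and 272 in ENT, and 213, 219, 233 and 428 in ENT+PD1. It measured 27.1, 116, 119 and 152 in ENT+CTLA4, 15.0, 185, 426 and 481 in the triple arm ENT+PD1+CTLA4, and 57.8 and 127 in ENT+CTLA4+HER2. The repeat-titled pair gave 83.2 and 32.4. ENT+PD1+CTLA4 alone held both the lowest and the highest value of the series, while ENT+CTLA4 lay wholly below vehicle.

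Il6st, which transmits the IL-6 signal, had its lowest values in the same tumours as Il6 in both of these arms. It measured 77.1, 133, 139 and 143 in ENT+CTLA4, with 77.1 in replicate 2, and 44.1, 158, 173 and 184 in ENT+PD1+CTLA4, with 44.1 in replicate 2. In vehicle it measured 89.9, 122, 130 and 197, in ENT 89.5, 110, 119 and 135, and in ENT+PD1 100.0, 114, 166 and 208. The arms overlapped throughout.

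The receptor chains Il2rg, Il7r and Il21r, together with Il16, had their 4 highest values among the 22 samples of the titled arms in the same 4 tumours: ENT+PD1 replicates 5 and 6, ENT+CTLA4 replicate 6 and ENT+PD1+CTLA4 replicate 1. This pattern was noticed after the values were seen. Of the 25 tested genes, these 4 shared that set of tumours, and so did 46 of all 621 genes tested (7.41%). Il21r, the receptor of a T follicular helper cytokine, measured 99.5, 86.1, 84.7 and 118 in them, in the order given, and at most 33.5 elsewhere. Il7r, the IL-7 receptor of naive and memory T cells, measured 91.3, 89.2, 68.3 and 109, and at most 45.2 elsewhere. Il2rg measured 98.3, 109, 90.9 and 104, and at most 65.5 elsewhere.

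Those tumours also had the highest macrophage marker levels. The mean log2(value + 1) over 9 macrophage markers was 8.80, 9.33, 8.69 and 8.78 in them and 7.06 to 8.45 in the other titled samples. The mean over 8 T cell markers was 5.04, 5.28, 5.81 and 6.73 in them. The other titled samples had between 0 and 5 T cell markers above the negative controls, with levels from 2.60 to 3.94 and, in ENT+CTLA4+HER2 replicate 2, 4.72. The part of these cell types in the values of Il2rg, Il7r, Il21r and Il16 was not tested. Il1rl1 followed only in part, at 136 and 219 in ENT+PD1 replicates 5 and 6 and 67.0 in ENT+PD1+CTLA4 replicate 1, its 3 highest values, but 36.5 in ENT+CTLA4 replicate 6, where 8 of 8 T cell markers were above the negative controls. The level of 5 mast cell and eosinophil markers was 4.57 and 4.79 in ENT+PD1 replicates 5 and 6, the highest of the series, and their part in the Il1rl1 values was not tested.

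**Figure D2:**
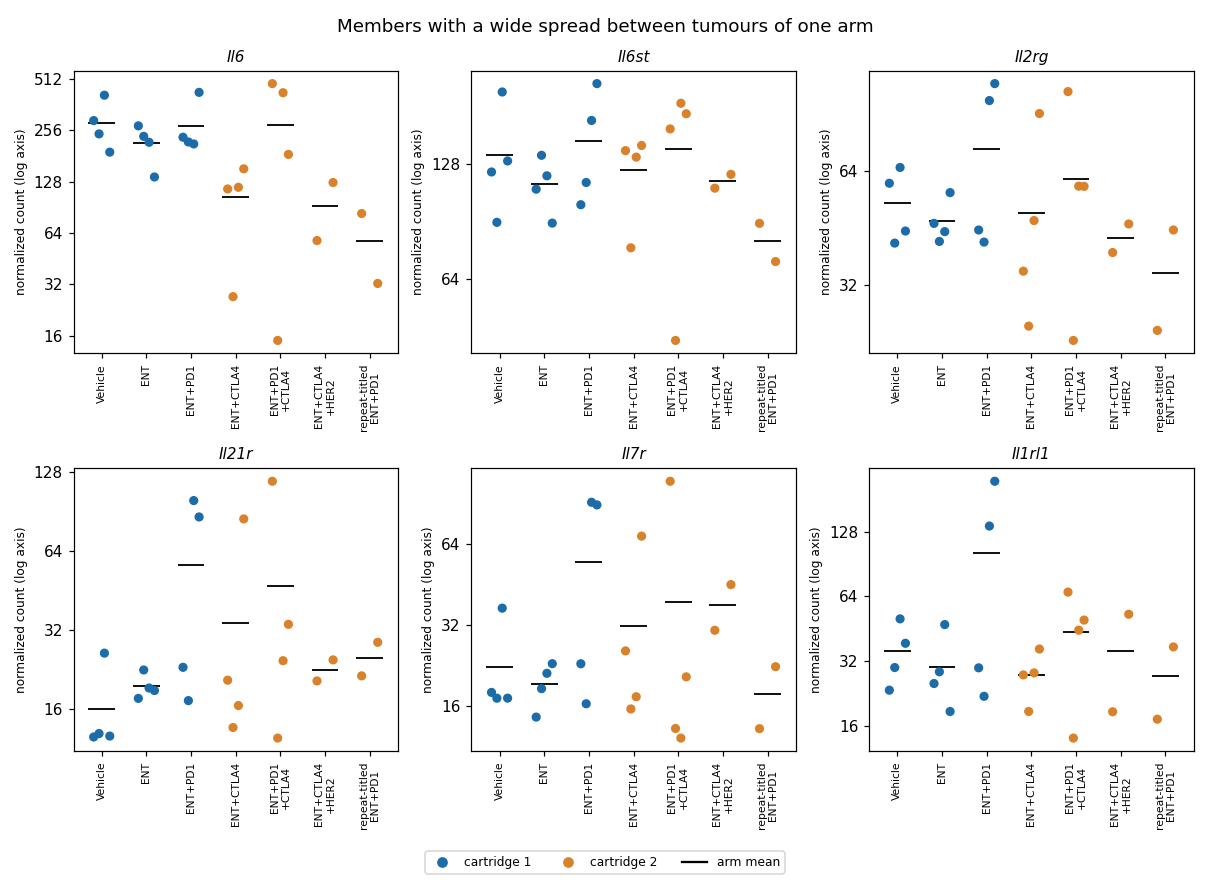
Normalized counts (log axis) of Il6, Il6st, Il2rg, Il21r, Il7r and Il1rl1 in each of the 24 samples by arm, with the arm mean as a line and the cartridge as colour. Points of a single arm lie far apart: Il6 in ENT+PD1+CTLA4 spans 15.0 to 481, and Il21r in ENT+PD1 spans 17.1 to 99.5.

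Differences between arms were tested for the 25 genes that reached 20 normalized counts in 4 or more samples, 6 of them ligands and 19 receptors, in a single limma fit over all 621 genes that passed this filter. The filter lets a gene in through a single arm in which it is high, and the other 25 genes were too weak to test. Values were taken as log2(value + 1), which understates changes of weak genes, and p-values were adjusted by the Benjamini-Hochberg method over all 621 genes with a threshold of 0.05. No interleukin or receptor gene passed in any of 9 comparisons, in an F test over 5 arms or in a test of the interaction of anti-PD-1 and anti-CTLA-4. The genes named below are the 3 with the smallest unadjusted p in each comparison, and none of them passed. Vehicle, ENT and the other arms each serve in several comparisons, so the comparisons share samples.

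For ENT against vehicle, 0 of 25 genes and 0 of 621 (percent called 0.0) passed, and 0 of the 25 had an unadjusted p under 0.05, against 29 of all genes (4.67%). The median log2 change was −0.19 over the 25 genes and −0.11 over all genes. Il17ra measured 117, 126, 126 and 129 in ENT and 129, 147, 158 and 161 in vehicle, a log2 change of −0.25 ± 0.15 (SE, limma adjusted p = 0.999, 0.493 to 1 over the alternatives). The highest ENT value was just under the lowest vehicle value, so the arms did not overlap, as was the case for 6.44% of all genes. Il23a (215 ± 21.1 in ENT and 257 ± 25.5 in vehicle, SD, n = 4) and Il11ra1 (35.9 ± 4.57 and 47.5 ± 8.88) had log2 changes of −0.25 ± 0.16 and −0.38 ± 0.27.

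For ENT+PD1 against vehicle, 0 of 25 genes and 0 of 621 (0.0 percent called) passed, with an unadjusted p under 0.05 for 3 of the 25 and for 9.66% of all genes. The median log2 change was 0.23 over the 25 genes and 0.18 over all. Il17b measured 61.2, 79.6, 86.2 and 108 in ENT+PD1 and 98.2, 114, 122 and 133 in vehicle, a log2 change of −0.50 ± 0.17 (limma adjusted p = 0.470, 0.126 to 0.990 over the alternatives). The ranges overlapped through ENT+PD1 replicate 2 alone, at 108. Il1rl2 had a log2 change of 0.50 ± 0.21 (74.0 ± 18.9 against 51.1 ± 6.35, SD, n = 4) and Il21r of 1.45 ± 0.64 (56.4 ± 42.4 against 16.0 ± 6.71). Il10 was the only one of the 25 genes whose values did not overlap, at 20.4, 23.4, 23.9 and 24.1 in ENT+PD1 and 12.8, 13.4, 18.0 and 19.4 in vehicle. Its log2 change was 0.52 ± 0.27 (limma adjusted p = 0.479, 0.259 to 0.990 over the alternatives), and 2.58% of all genes did not overlap. Il10 met the filter of 20 counts in 4 samples only with the ENT+PD1 samples, and no vehicle sample reached 20. The filter thus favoured this separation, which is no evidence of a change.

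For ENT+PD1 against ENT, 0 of 25 genes and 2 of 621 (0.322%) passed, with an unadjusted p under 0.05 for 6 of the 25 and for 19.3% of all genes. The median log2 change was 0.34 over all genes and 0.50 over the 25, of which 21 had a fitted change above 0. Median rescaling moved the median of all genes to −0.02 and that of the 25 genes to 0.14, with 15 above 0, and quantile normalization moved them to −0.04 and 0.02. Il11ra1 measured 58.4 ± 16.3 against 35.9 ± 4.57 (SD, n = 4), a log2 change of 0.65 ± 0.27 (limma adjusted p = 0.242, 0.0705 to 0.748 over the alternatives). Il17b had a change of −0.37 ± 0.17 (83.7 ± 19.2 against 107 ± 7.39), and the other fitted changes below 0 were those of Il13ra1, Il18r1 and Il18rap. With each sample rescaled to its own median these changes were 0.29 for Il11ra1 and −0.73 for Il17b, and with quantile normalization 0.15 and −0.78. Il10 measured 10.2, 15.5, 17.1 and 18.5 in ENT, below all 4 ENT+PD1 samples, with a log2 change of 0.58 ± 0.27, which was 0.22 with median rescaling and 0.07 with quantile normalization. Il17ra measured 144, 153, 157 and 166 in ENT+PD1, above all 4 ENT samples, with 0.31 ± 0.15, and 7.09% of all genes did not overlap.

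Il10 lay close to the background in these arms. No ENT sample reached the filter value of 20 either, so its separation from ENT was favoured by the filter as well. It was detected in 2 of 4 vehicle, 3 of 4 ENT and 3 of 4 ENT+PD1 samples, where the negative controls were also high. In the repeat-titled pair, which bears the ENT+PD1 name on the other cartridge, Il10 measured 13.2 and 4.98, against 24.1 and 20.4 in the samples of the same titles.

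On the second cartridge, adding anti-PD-1 to ENT+CTLA4 left 0 of 25 genes and 0 of 621 (0.0%) past the threshold, with an unadjusted p under 0.05 for 0 of the 25 and for 1.61% of all genes. The medians were 0.10 over the 25 genes and −0.01 over all. Il17b measured 67.0, 90.1, 91.9 and 98.7 with anti-PD-1 and 85.8, 98.5, 120 and 125 without it, a log2 change of −0.30 ± 0.17 (limma adjusted p = 1.000, 0.844 to 1.000 over the alternatives). Il15ra (13.8 ± 6.65 against 9.08 ± 5.80, SD, n = 4) had a log2 change of 0.66 ± 0.47, and Il6 (277 ± 217 against 103 ± 53.5) one of 0.84 ± 0.77. Leaving out a single sample moved these between 0.18 and 1.03 for Il15ra and between 0.29 and 1.94 for Il6. For the interaction of the antibodies, 0 of 25 genes and 0 of 621 (0.0%) passed, and an unadjusted p under 0.05 was found for 0 of the 25 and for 6.76% of all genes. Il10ra had the smallest p, at −0.91 ± 0.44, followed by Il6ra (−0.64 ± 0.43) and Il5 (−0.83 ± 0.61), with limma adjusted p of 0.595, 0.631 and 0.661.

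Anti-HER2 on top of ENT+CTLA4 was measured in 2 samples against 4. None of the 25 genes passed, while 14 of 621 (2.25%) did, and an unadjusted p under 0.05 was found for 2 of the 25 and for 18.8% of all genes. Il17b measured 72.3 and 76.5 with anti-HER2, below all 4 ENT+CTLA4 samples, a log2 change of −0.51 ± 0.21 (limma adjusted p = 0.177, 0.119 to 0.543 over the alternatives). Il15ra had 1.23 ± 0.57 (19.3 ± 5.62, n = 2, against 9.08 ± 5.80, n = 4) and Il17rb 0.89 ± 0.43 (20.9 ± 4.04 against 11.3 ± 3.91). Both genes lay near the background. Il15ra was detected in 1 of 2 samples with anti-HER2 and 2 of 4 without it, and Il17rb in 2 of 2 and 3 of 4. The scaled negative controls were 7.86 and 6.62 with anti-HER2 and 3.59 to 5.47 in ENT+CTLA4. The part of this background in the changes was not tested. The values did not overlap for 7 of the 25 genes (Il10ra, Il11ra1, Il17b, Il17rb, Il22ra1, Il23a and Il3ra) and for 28.8% of all genes. Il18r1 measured 347 and 129 with anti-HER2. Without replicate 1 of that arm, whose neutrophil marker level of 8.13 was the highest of the series, Il18r1 passed (limma adjusted p = 0.00498), as did 3.7% of all genes, which then rested on a single sample assumed to vary like the other arms.

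**Figure D3:**
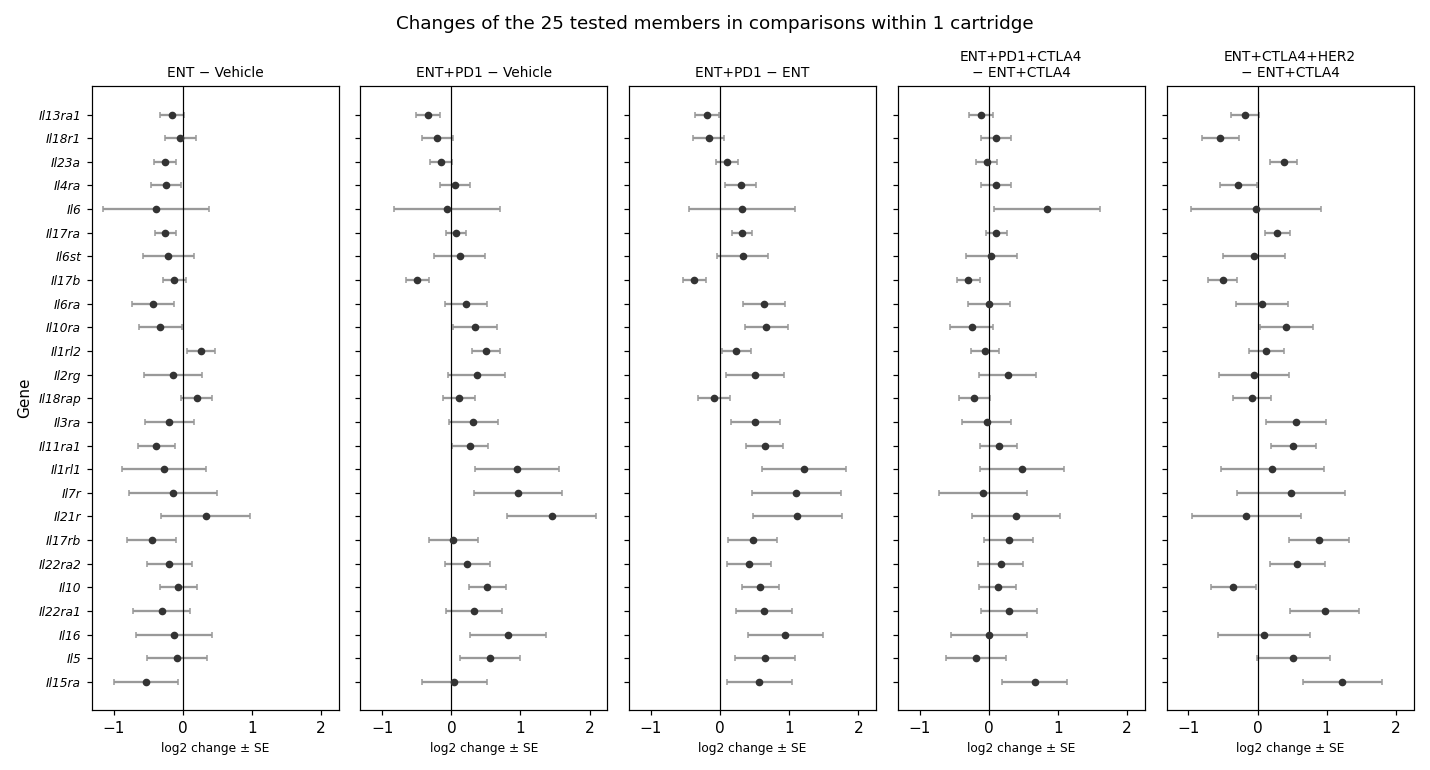
Log2 change (points) with SE (bars) of the 25 tested interleukin and receptor genes in the 5 comparisons whose arms ran on the same cartridge, in the order of the detection map. None passed the adjusted threshold. The panels share arms. The change of Il17b is −0.12 for ENT against vehicle and −0.51 for anti-HER2.

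The anti-CTLA-4 arms and the arms without anti-CTLA-4 ran on different cartridges, so treatment and cartridge cannot be told apart when they are compared. None of the 25 genes passed for ENT+CTLA4 against vehicle (1.45% of all genes called), ENT+PD1+CTLA4 against vehicle (2.09%), ENT+CTLA4 against ENT (0.0%) or ENT+PD1+CTLA4 against ENT+PD1 (3.22%). An unadjusted p under 0.05 was found for 7, 5, 3 and 6 of the 25, and for 16.6%, 14.2%, 15.1% and 17.7% of all genes. Il22ra2 and Il22ra1 ranked among the first 3 in each of these comparisons, and the F test over 5 arms had the same pair first (limma adjusted p = 0.0652 for Il22ra1 and 0.0673 for Il22ra2), followed by Il11ra1 (0.102). In that F test 3.22% of all genes passed, and 6 of the 25 and 19.5% of all genes had an unadjusted p under 0.05.

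Il22ra2 measured 22.9, 29.1, 29.3 and 41.4 in ENT+PD1 and 10.6, 11.4, 14.1 and 19.5 in ENT+PD1+CTLA4, a log2 change of −1.09 ± 0.32 (limma adjusted p = 0.0711, 0.0329 to 0.810 over the alternatives). The arms did not overlap, as for 8.21% of all genes. It measured 11.8, 30.8, 31.8 and 35.7 in vehicle and 10.0, 10.4, 13.2 and 14.4 in ENT+CTLA4. A single vehicle sample, replicate 3, lay within the range of the anti-CTLA-4 arms, and without it Il22ra2 passed against vehicle for ENT+CTLA4 (limma adjusted p = 0.0150) and for ENT+PD1+CTLA4 (0.0244). In those fits 3.54% and 2.9% of all genes passed. The scaled negative controls were 6.93 in vehicle replicate 3 and 9.86 to 10.5 in the other vehicle samples.

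Il22ra1 measured 15.1, 18.6, 29.1 and 42.2 in vehicle and 6.21, 10.0, 10.3 and 10.4 in ENT+CTLA4, with no overlap and a log2 change of −1.33 ± 0.41 (limma adjusted p = 0.103, 0.0543 to 0.910 over the alternatives). Il5 measured 17.1, 30.1, 31.0 and 32.8 in ENT+PD1 and 7.05, 7.31, 8.65 and 17.3 in ENT+PD1+CTLA4, a log2 change of −1.42 ± 0.43 (limma adjusted p = 0.0761, 0.0323 to 0.927 over the alternatives). Il17rb measured 24.3 ± 6.71 in vehicle and 11.3 ± 3.91 in ENT+CTLA4 (SD, n = 4), a log2 change of −1.06 ± 0.35. Il22ra1 was detected in 4 of 4 vehicle and 2 of 4 ENT+CTLA4 samples, and Il5 in 4 of 4 ENT+PD1 and 1 of 4 ENT+PD1+CTLA4 samples. The sizes of these changes thus depend in part on values at background. Without ENT+PD1 replicate 2, or without ENT+PD1+CTLA4 replicate 1, Il11ra1, Il22ra1, Il22ra2 and Il5 passed for ENT+PD1+CTLA4 against ENT+PD1, 4 of 25 genes against 11.1% and 6.6% of all genes in the same fits. On the second cartridge Il5 reached at most 17.3, Il22ra1 20.7, Il22ra2 25.5 and Il17rb 23.8. These genes met the filter of 20 counts in 4 samples only with the first cartridge. For them the filter thus favoured lower values in the anti-CTLA-4 arms.

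The scaled negative controls were lower on the second cartridge as well, and their part in these values was not tested. The repeat-titled pair bears the ENT+PD1 name with no anti-CTLA-4 in the title, and whether its samples are other tumours or a second run of the same RNA is not known. Il22ra2 measured 9.14 and 9.96 in the pair, against 41.4 and 22.9 in the samples of the same titles on the first cartridge. Il22ra1 measured 12.2 and 8.71 against 51.7 and 15.5, and Il5 7.11 and 9.96 against 31.0 and 17.1. Il17rb was lower in only the first of the pair, at 12.2 and 18.7 against 27.6 and 14.7. The anti-HER2 arm on the same cartridge measured 25.5 and 12.9 for Il22ra2, 17.0 and 20.7 for Il22ra1 and 15.3 and 16.8 for Il5. Of these 2 samples, Il22ra2 and Il5 were each detected in 1 and Il22ra1 in 2. Their scaled negative controls, 7.86 and 6.62, were the highest of the second cartridge. When the pair was added to ENT+PD1 and the cartridge fitted as a block, the log2 change of ENT+PD1+CTLA4 against ENT+PD1 became 0.46 for Il22ra2, 0.13 for Il22ra1 and 0.15 for Il5, none of which passed. That fit takes the pair as separate ENT+PD1 samples. Taking every tested gene, 11 of 25 were lower in both samples of the pair, against 44.4% of all 621.

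**Figure D4:**
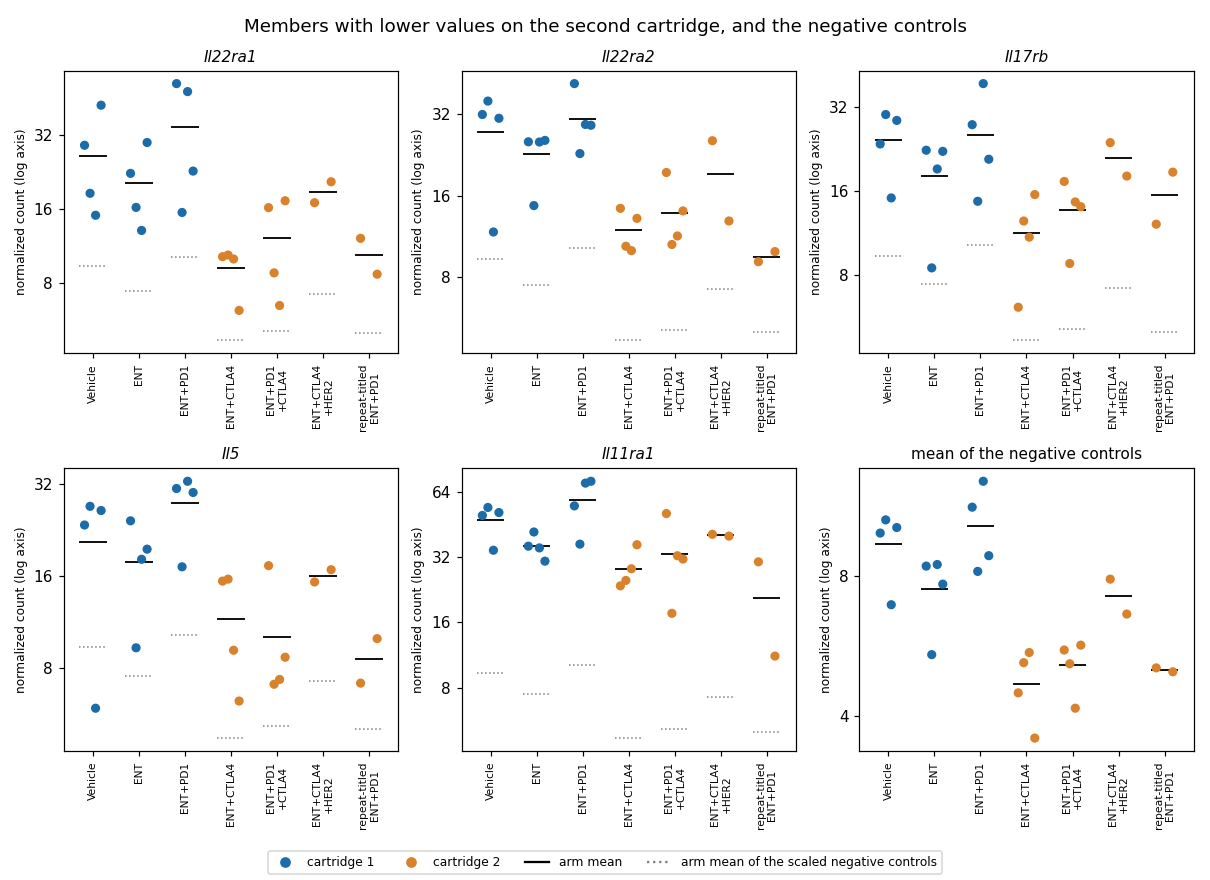
Normalized counts (log axis) of Il22ra1, Il22ra2, Il17rb, Il5 and Il11ra1, and the scaled mean of the negative controls, in each of the 24 samples by arm, with arm means as lines, the negative controls as dotted lines and the cartridge as colour. The repeat-titled pair lies below its namesakes in ENT+PD1 for 4 of the genes, for example at 9.14 and 9.96 for Il22ra2, but not for Il17rb, at 12.2 and 18.7.

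Il10ra and Il6 were detected in all samples of both cartridges. The lowest Il6 value, 15.0 in ENT+PD1+CTLA4 replicate 2, was close to that sample's threshold of 10.1. Il10ra measured 29.1, 39.2, 47.4 and 48.8 in ENT and 68.7, 70.7, 81.2 and 85.2 in ENT+CTLA4, with no overlap, as for 18.4% of all genes. Its log2 change was 0.90 ± 0.31 (limma adjusted p = 0.220, 0.0232 to 0.563 over the alternatives), and it passed where the fit held the ENT and ENT+CTLA4 samples only, as did 7.41% of all genes. In the repeat-titled pair Il10ra was higher than in the samples of the same titles, at 51.8 and 82.2 against 33.3 and 45.7. Il6 in ENT+CTLA4 did not overlap vehicle, with a log2 change of −1.64 ± 0.77 (limma adjusted p = 0.287, 0.0932 to 0.779 over the alternatives). The repeat-titled pair was again low for Il6, at 83.2 and 32.4 against 233 and 219. Il10ra, Il16, Il18r1, Il22ra1 and Il6 were the 5 of 25 genes without overlap in that comparison, against 12.7% of all genes. For ENT+PD1+CTLA4 against vehicle these were Il13ra1 and Il18r1, against 8.53% of all genes, and Il17b had a log2 change of −0.43 ± 0.17 (limma adjusted p = 0.242).

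Marker levels of other cell types varied between the tumours, and several interleukin receptors correlated with them, in shares near those of all genes for the macrophage, neutrophil and stromal markers. For the 21 genes detected in at least 18 samples, Pearson and Spearman correlations with the mean log2 level of 4 marker lists were computed over 22 samples, which makes 84 relations. Permutation p-values (two-sided, 100000 resamples) were adjusted over the 4 lists and all genes tested, 2455 relations in all, and a gene was counted where both adjusted p-values were under 0.05. Genes and marker lists of a sample share its housekeeping scaling. No value is given for the T cell list, on which 17 samples lay at 2.60 to 3.94 and 5 were spread over 4.72 to 6.73. The step from 5.81 to 6.73 inside the upper 5 was wider than that from 3.94 to 4.72, so the 2 groups were not cleanly divided. The neutrophil and stromal lists also had a sample set apart, at 8.13 and 6.11, and were kept. Relations with the T cell list were planned but were not tested. The 4 samples with the highest macrophage marker levels, named above, were also the highest on the T cell list. The relations with macrophage markers below therefore do not single out macrophages.

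With the macrophage markers, 9 of 21 genes correlated, all positively, against 30.7% of all genes outside the list with a positive and 2.45% with a negative correlation (33.1% in all). They were the receptors Il2rg (r = 0.85, rho = 0.71), Il21r (0.84 and 0.76), Il1rl1 (0.83 and 0.71), Il6ra (0.83 and 0.80), Il6st (0.82 and 0.83), Il7r (0.76 and 0.56), Il4ra (0.76 and 0.67), Il10ra (0.61 and 0.65) and Il17ra (0.60 and 0.68). The largest adjusted permutation p among the first 5 was 0.000203 for r and 0.00494 for rho. Within the first and the second cartridge, r was 0.85 and 0.92 for Il2rg, 0.86 and 0.80 for Il6ra, and 0.87 and 0.38 for Il10ra. Without the 2 samples farthest from the median marker level, r was 0.77 for Il2rg, 0.85 for Il21r and 0.71 for Il7r. Without those samples 4 genes were counted (Il17ra, Il21r, Il6ra and Il6st), against 20.6% of all genes. With values rescaled to the median of each sample the 4 were Il2rg, Il21r, Il13ra1 and Il23a, of which only 2 correlated positively. For Il13ra1 and Il23a r was −0.47 and −0.41 with the housekeeping scaling, where neither was counted. Only Il2rg and Il21r were thus shared with the housekeeping scaling, and 26.4% of all genes were counted.

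With the neutrophil markers, 3 of 21 genes correlated, all positively (10.9% of all genes positive and 0.489% negative, 11.4% together): Il17ra, Il10ra and Il6ra. Il10ra had r = 0.65 and rho = 0.76 (adjusted permutation p = 0.00225 and 0.00205), r = 0.76 and 0.73 within the cartridges, and r = 0.75 without the 2 farthest samples. For Il17ra, r fell from 0.71 to 0.52 without those samples, and Il10ra was the only gene then counted (5.7% of all genes), as it was with median rescaling (3.75%). Taken as deviations from the arm means, Il10ra was not counted, and Il17ra, Il18rap, Il6ra and Il7r were, against 10.7% of all genes.

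With the endothelial and stromal markers, 4 of 21 genes correlated, all positively (14.5% of all genes positive and 0.489% negative, 15.0% together), among them the ligand Il6 and its signal transducer Il6st. Il6st had r = 0.91 and rho = 0.85 (adjusted permutation p = 0.000203 and 0.000438), with r = 0.92 and 0.93 within the cartridges and 0.81 without the 2 farthest samples. Il6 had r = 0.84 and rho = 0.68 (adjusted permutation p = 0.000203 and 0.00864), with r = 0.74 and 0.87 within the cartridges and 0.68 without the 2 farthest samples. Il2rg (r = 0.68) and Il1rl1 (r = 0.65) were the others, and without those samples only Il6st was counted (5.55% of all genes). With median rescaling Il6 and Il6st were counted (4.73%). The stromal marker level was 6.11 in ENT+PD1+CTLA4 replicate 2, where Il6 and Il6st were lowest, and 7.69 to 9.00 in the other titled samples. It was 7.80 and 7.34 in the repeat-titled pair.

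The epithelial and tumour marker level had a narrow range, 8.56 to 8.95, and 4 of 21 genes correlated with it, against 5.69% of all genes (0.65% positive and 5.04% negative). Il13ra1 correlated positively (r = 0.63, rho = 0.58, adjusted permutation p = 0.0105 and 0.0326), while Il7r (r = −0.70), Il1rl2 (−0.69) and Il21r (−0.67) correlated negatively. Within the cartridges, r was 0.76 and 0.50 for Il13ra1 and −0.81 and −0.55 for Il1rl2. Without the 2 farthest samples r was 0.60 for Il13ra1 and −0.75 for Il1rl2, and only Il1rl2 was counted (0.976% of all genes). With median rescaling 8 of 21 genes were counted, 38.1% against 38.2% of all genes, among them Il13ra1, Il7r and Il21r but not Il1rl2.

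**Figure D5:**
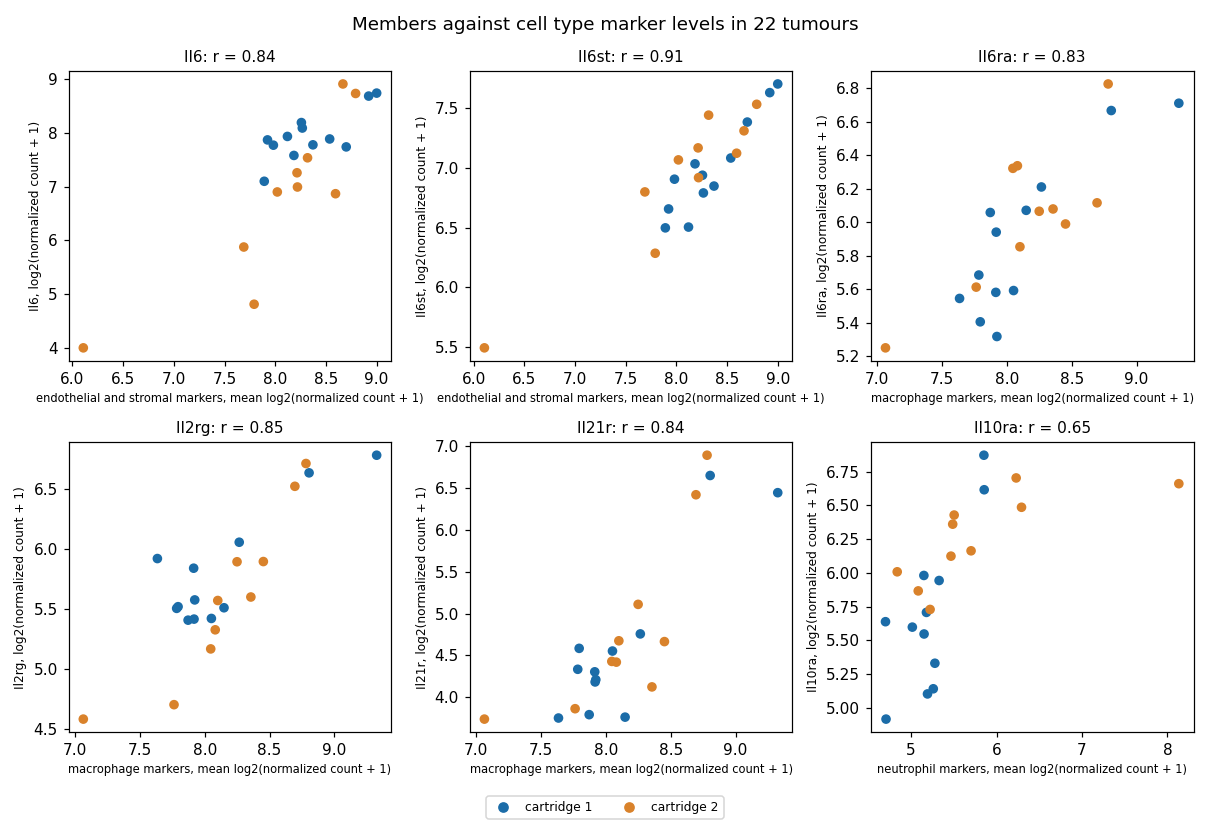
Log2(normalized count + 1) of Il6 and Il6st against the endothelial and stromal marker level, of Il6ra, Il2rg and Il21r against the macrophage marker level and of Il10ra against the neutrophil marker level, in 22 samples coloured by cartridge. Each panel gives Pearson's r, from 0.65 for Il10ra to 0.91 for Il6st, and the points of both cartridges rise from left to right.

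Other genes of interleukin signalling showed as few calls. A list of 44 genes, made of Janus kinases, STAT and SOCS factors, gp130 cytokines outside the 50 genes, T helper factors and chemokines, the IL-1 system, the IL-2 receptor chains set aside and Il34, among others, had 37 on the panel and 35 tested. None was called in 8 of the 9 comparisons, in the F test or for the interaction, where the share over all genes was between 0.0% and 3.22%. With anti-HER2, 1 of 35 was called, against 2.25% of all genes. This was Il34, a ligand of the CSF-1 receptor, at 55.8 ± 6.86 (SD, n = 2) with anti-HER2 and 94.8 ± 4.08 (n = 4) in ENT+CTLA4. Its log2 change was −0.76 ± 0.17 (limma adjusted p = 0.0310, 0.0284 to 0.191 over the alternatives).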

How the data were processed

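Bulk tumour RNA of 24 samples was counted by nCounter. The values are a linear normalized signal that the authors deposited, with equal housekeeping means. The submitters' processing notes name limma without a version, and how the values were normalized is not given in the sources used here. Of the panel, the series title names the PanCancer Immune panel and the label protocol a myeloid panel, and genes were used as the table names them. Divided by a factor per sample, 100% of values above 1 came out whole (tolerance 0.05), and 82 values stood at exactly 1. The negative controls were unscaled counts and were multiplied by that factor. Detection was set at their mean plus 2 SD.

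Genes that reached 20 normalized counts in 4 or more samples (621 of 770, 25 of 50 members) were tested as log2(value + 1) with limma 3.58.1 (R 4.3.3; lmFit, eBayes with trend) over 22 samples in 6 arms, with Benjamini-Hochberg adjustment over all genes tested. The repeat-titled pair stayed out, since its titles repeat those of other samples, and no cartridge term can be fitted without it. Same-numbered samples of different arms had a median correlation of −0.033 over 40 pairs, so numbers were not used as pairs. Correlations used Python 3.11.15 with numpy 2.4.6. Their p-values were adjusted over all genes tested and not over the members alone as first planned, and the stromal and epithelial lists were added after the values were seen. The T cell list was planned and was dropped after the values were seen. Named genes are the 3 members of smallest p in each comparison without a call, plus the levels of members detected in at least 18 samples. The members and lists were chosen with earlier results of these data known. The fit and the correlations were tested on simulated data. Alternatives covered scaling, filter, floor, background subtraction, blocks and left-out samples.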

Additional observations from a re-analysis of the deposited data

Results flagged for a closer look

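In 13 of 125 pairs of a tested gene and an arm of 4 samples, a single sample stood apart from the other 3 by Dixon's criterion, which chance meets in about 1 in 20 groups. Vehicle replicate 3 accounted for 4 of these: Il21r at 26.0 (others 12.5 to 12.8), Il7r at 37.0 (17.1 to 18.0), Il22ra2 at 11.8 (30.8 to 35.7) and Il5 at 5.88 (23.5 to 27.1). ENT replicate 2 was low for Il17rb at 8.51 (19.2 to 22.4) and Il22ra2 at 14.7 (25.2 to 25.6), and ENT replicate 4 was high for Il23a at 247 (203 to 207). The scaled negative controls were 6.93 in vehicle replicate 3 (others 9.86 to 10.5) and 5.42 in ENT replicate 2 (7.67 to 8.45). Their part in the low values of Il22ra2, Il5 and Il17rb was not tested. In ENT+PD1, Il6 stood at 428 in replicate 6 (213 to 233) and Il5 at 17.1 in replicate 2 (30.1 to 32.8).

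ENT+CTLA4 replicate 2 was low for Il6 at 27.1 (116 to 152) and Il6st at 77.1 (133 to 143), and replicate 6 was low for Il22ra1 at 6.21 (10.0 to 10.4). The scaled negative controls were 3.59 in ENT+CTLA4 replicate 6 and 4.49 to 5.47 in the other samples of that arm. Their part in the low Il22ra1 value was not tested. ENT+PD1+CTLA4 replicate 2 was low for Il6st at 44.1 (158 to 184).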

How the results depend on the processing

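None of the 25 genes was called in the 11 tests, and this held under median rescaling, quantile normalization, the floor at 20, no filter, subtraction of the negative control mean (chosen after seeing the data), and the cartridge block with the repeat-titled pair. The replicate block also gave 0 members called in each test. In a fit of the compared groups only, 1 gene (Il10ra) was called for ENT+CTLA4 against ENT, with 7.41% of all genes. Leaving out a sample gave 0 to 1 for anti-HER2 and for both anti-CTLA-4 arms against vehicle, 0 to 4 for ENT+PD1+CTLA4 against ENT+PD1 and 0 to 3 for the F test, and 0 elsewhere. Over all genes the same fits called 2.9% to 11.1%. For the F test the calls came without vehicle replicate 3 (5.8% of all genes), ENT+PD1 replicate 2 (9.18%) or ENT+PD1+CTLA4 replicate 1 (6.44%). Median rescaling and quantile normalization moved the median change of all genes for ENT+PD1 against ENT from 0.34 to −0.02 and −0.04. Under the cartridge block, log2 changes turned positive for Il22ra1 and Il22ra2: 0.16 and 0.52 (ENT+CTLA4 against vehicle), 0.45 and 0.69 (ENT+PD1+CTLA4 against vehicle), 0.46 and 0.71 (ENT+CTLA4 against ENT), 0.13 and 0.46 (ENT+PD1+CTLA4 against ENT+PD1), with 0.15 for Il5 in the last. Under median rescaling 4, 1, 2 and 8 genes correlated with the macrophage, neutrophil, stromal and epithelial markers (26.4%, 3.75%, 4.73% and 38.2% of all genes). Of these, 2, 1, 2 and 4 correlated positively. Without the 2 farthest samples the numbers were 4, 1, 1 and 1 (20.6%, 5.7%, 5.55% and 0.976%). Taken as deviations from the arm means, the numbers in the same order were 13, 4, 6 and 5 (44.7%, 10.7%, 30.7% and 12.4%). The cause was not tested. The edgeR and DESeq2 alternatives were not run, since whole counts could not be recovered for every sample where values stood at the floor of 1. Arms of 2 to 4 samples, and a background near many of the ligands, limit what could be seen.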
